A study of Rattus norvegicus with 13 samples.

Results

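DEAD and DEAH box genes encode a large family of RNA helicases, and their expression was compared in rat mammary epithelial cells between 2 ages. The genes were taken as every row of the expression table whose symbol starts with Ddx or Dhx and a digit. This gave 48 of 14790 genes, 32 with a Ddx symbol and 16 with a Dhx symbol. The cells came from Wistar-Furth rats, a strain that is susceptible to mammary cancer. The window of susceptibility (WOS) is the age at which the gland responds most to carcinogens, and libraries were made from 6 rats within it (6 weeks old) and from 7 rats that had left it (10 weeks old), each library from its own rat. No treatment, transgene or allele is given for either age, so the groups differ by age alone in the labels. The glands were minced and digested with collagenase, and the ductal fragments were kept on a nylon filter, which enriches epithelial cells and can leave fibroblasts and immune cells in the sample.

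The helicases of this family use ATP to pull apart short RNA duplexes or to strip proteins from RNA. They are named after the amino acids (Asp-Glu-Ala-Asp or Asp-Glu-Ala-His) of the motif that binds and splits ATP. Members act at nearly every stage of the life of an RNA: transcription, splicing, ribosome assembly, export, translation, decay and the sensing of viral RNA. In mammary cells Ddx5 and Ddx17 are also known as coactivators of the estrogen receptor. The symbol rule also takes in Ddx11, which unwinds DNA and serves sister chromatid cohesion.

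The deposited values are whole numbers that behave as read counts scaled per library and rounded, although the scaling is not given in the sources used here. They are called normalized counts. Summed over all genes, a rat at 6 weeks had 13261906 to 15659533 of them and a rat at 10 weeks 13766735 to 15402814. The 48 helicase genes together held 0.529% to 0.647% of this sum within WOS and 0.557% to 0.698% outside WOS. Rats of 1 age also differed among themselves: the first component of the variation within the ages held 28.3% of it and set 5 rats (75 and 80 at 6 weeks, 78, 81 and 83 at 10 weeks) apart from the other 8, of which 4 are of each age. The labels give no name to this split. Values in the 8 rats and in the 5 rats alone are therefore given for the called helicase genes and for some others. Both sets were drawn from the spread of these same values. Calls seen only in a set, or only with a certain rat left out, are thus descriptions and support nothing. Marker genes of cell types that the sample could hold were summed for each rat. Luminal markers lay at 37179 to 54155 within WOS and 51005 to 66079 outside WOS, with 2 of 6 called higher at 10 weeks. Basal markers lay at 17912 to 28393 and 25316 to 35053. Limma called 0 of the 6 in the table (of 7 listed), and 1 had an unadjusted p under 0.05, higher at 10 weeks. Fibroblast markers lay at 105230 to 220582 within WOS and 18702 to 54383 outside WOS, and 3 of the 5 in the table (of 6 listed) were called higher at 6 weeks. Endothelial markers lay at 3210 to 5580 and 2955 to 5030, with 0 of 3 called (1 at an unadjusted p under 0.05, higher at 6 weeks). Adipocyte markers lay at 66 to 134 and 28 to 78, with 2 of 3 called higher at 6 weeks. No marker in the table was at 0 in every rat. The part of these cell types in the helicase results was not tested, and in bulk RNA fewer cells of a type and less RNA per cell cannot be told apart.

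To see which helicase genes differed between the ages, limma was fitted over all genes on log2(normalized count + 1). A gene was called where its Benjamini-Hochberg adjusted p was under 0.05. Log2 fold changes are given as 6 weeks over 10 weeks, with values above 0 for higher expression within WOS. All 48 helicase genes were expressed above a count of 0 in every rat. Called higher at 6 weeks were 4, which is 8.33% beside 8.71% of all genes tested. Another 4 were called higher at 10 weeks, or 8.33% beside 7.39% of all genes. For 3 genes, or 6.25%, no rat of one age lay within the range of the other age, beside 6.07% of all genes. These shares lie near those of all genes. RNA sensing genes made up 3 of the 4 called higher at 6 weeks, and ribosome assembly genes made up all 4 called higher at 10 weeks. Each gene was placed in a single role, with earlier results of these data known, so counts per role depend on the placing. Over the 48 genes the median log2 fold change was -0.11, beside 0.028 over all genes. Of the 48, 34 lay below 0, beside 47.5% of all genes. With library size scaling that median was -0.066 with 29 genes below 0, while the median over all genes was 0.074.

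**Figure D1:**
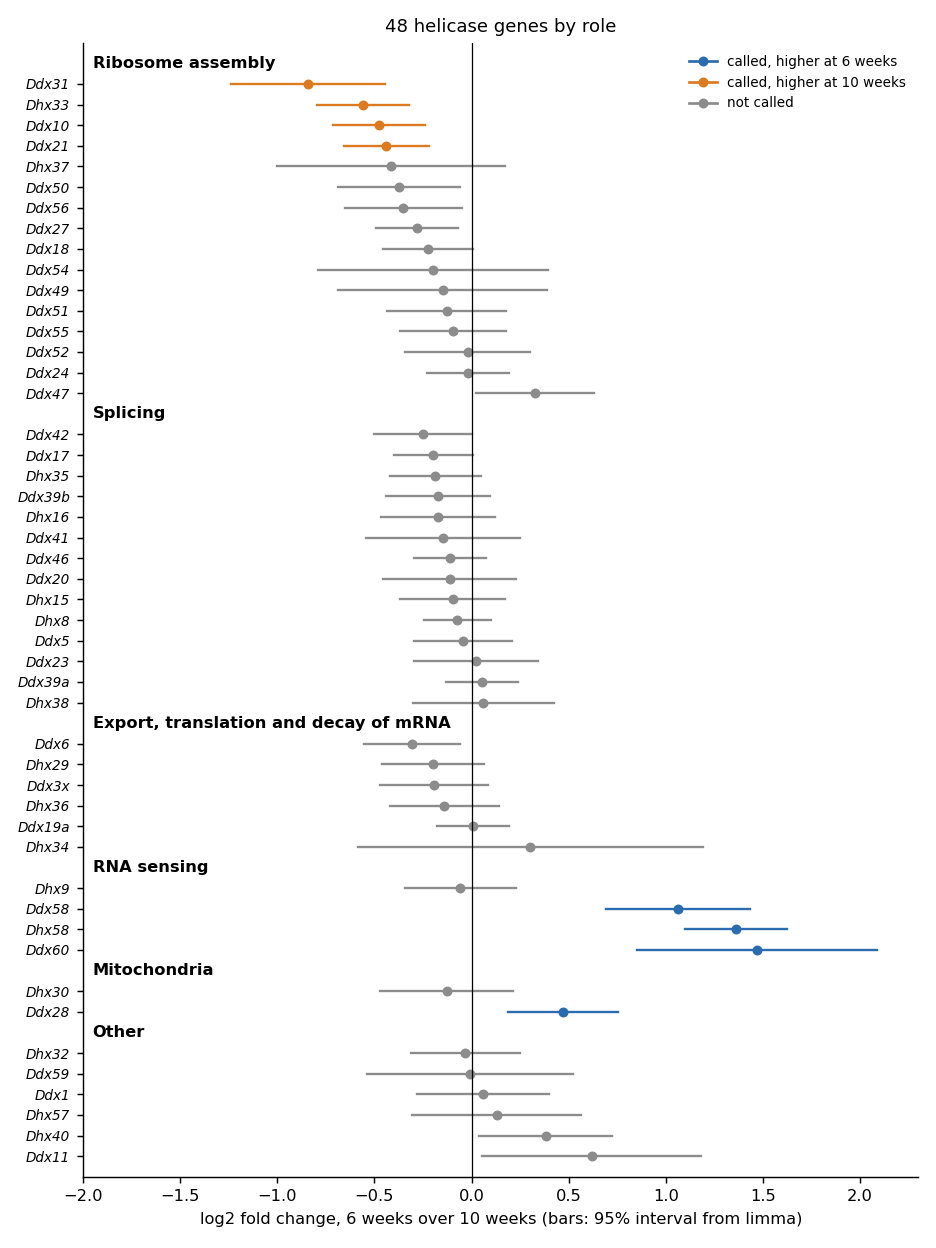
The log2 fold change (6 weeks over 10 weeks, x axis) of each of the 48 helicase genes, grouped by role and ordered by value, with the 95% interval from limma as a bar and called genes in colour. The 4 genes called higher at 10 weeks all stand among the ribosome assembly genes, and 3 of the 4 called higher at 6 weeks stand among the RNA sensing genes.

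As grouped here, RNA sensing genes were higher within WOS for 3 of the 4 members. Ddx58 (ENSRNOG00000006384) encodes RIG-I, the cytoplasmic sensor of short viral RNA that carries a triphosphate end. Dhx58 (ENSRNOG00000018247) encodes LGP2, a relative of RIG-I that lacks its signalling domains and tunes the response. Ddx60 (ENSRNOG00000059097) is an antiviral helicase induced by interferon. Ifih1 encodes MDA5, the sensor of long double-stranded RNA, which belongs with RIG-I and LGP2 but has a symbol outside the rule. The promoters of Ddx60 and Ifih1 are shown because both hold a match to the core of the interferon-stimulated response element within the 250 bases before the start of the gene. They are from RefSeq, build GRCr8, minus strand, at chr16:33208840-33209089 and chr3:67683969-67684218. Capitals mark the core, written as GAAA, any 2 bases, GAAA, and in Ifih1 also an ETS core (CCGGAAG), which does not overlap the former.
Ddx60: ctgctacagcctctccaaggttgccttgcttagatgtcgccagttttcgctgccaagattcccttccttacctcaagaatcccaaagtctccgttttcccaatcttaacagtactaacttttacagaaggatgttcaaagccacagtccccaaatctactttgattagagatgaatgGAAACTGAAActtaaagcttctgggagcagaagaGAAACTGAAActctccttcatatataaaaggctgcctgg
Ifih1: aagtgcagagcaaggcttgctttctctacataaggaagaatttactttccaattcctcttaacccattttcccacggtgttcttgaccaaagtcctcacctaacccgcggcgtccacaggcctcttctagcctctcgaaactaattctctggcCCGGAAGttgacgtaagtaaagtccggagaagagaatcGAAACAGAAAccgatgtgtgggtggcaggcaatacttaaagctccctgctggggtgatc
Both matches of Ddx60 read GAAACTGAAA and lie 73 to 64 and 39 to 30 bases upstream of the start. In Ifih1 the match GAAACAGAAA lies 59 to 50 bases upstream. Searched on both strands, the core was found in the windows of 2 of 43 helicase genes with a RefSeq entry (Ddx49 and Ddx60), or 4.65%, beside 2.63% of 10104 genes of the table and 3.29% of all 27457 RefSeq windows. Windows were matched by symbol, and Ddx24, Ddx52, Ddx58, Ddx6 and Dhx58 had none. A match is a run of letters in this window and was not tested as a binding site.

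Dhx58 parted the ages without overlap. Its lowest, median and highest normalized counts were 165, 184 and 217 at 6 weeks and 59, 68 and 95 at 10 weeks. The mean was 188 ± 19.6 (SD, n = 6) against 73.1 ± 12.3 (SD, n = 7), a log2 fold change of 1.36 (SE 0.12) or 2.57-fold (limma, adjusted p = 7.26e-05). The 8 rats alone gave 1.44 and the 5 rats alone 1.27. For Ddx58 the counts were 178, 245.5 and 274 at 6 weeks and 87, 110 and 182 at 10 weeks. All of the 6-week rats but 1 lay above every 10-week rat, and the overlap came from rat 78 at 182. The log2 fold change of Ddx58 was 1.06 (SE 0.17), or 2.09-fold (limma, adjusted p = 0.00162), with 1.26 in the 8 rats and 0.70 in the 5 rats. Ddx60 had counts of 207, 305.5 and 397 at 6 weeks and 65, 103 and 285 at 10 weeks. Here too the overlap came from rat 78, at 285, while the next 10-week rat was at 123. Ddx60 thus had a log2 fold change of 1.47 (SE 0.29), or 2.77-fold (limma, adjusted p = 0.00516), and of 1.70 without rat 78. Among the 8 rats it was 1.43, and 1.58 among the 5 rats.

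Ifih1 had counts of 865, 1189 and 1262 at 6 weeks and 638, 834 and 918 at 10 weeks. All but 1 of the 6-week rats lay above every 10-week rat, and the log2 fold change was 0.49 (SE 0.12), or 1.41-fold (limma, adjusted p = 0.0170). The call of Ifih1 was lost in the 8 rats alone, at 0.35 (limma, adjusted p = 0.106), while Ddx58, Dhx58 and Ddx60 were called there. Dhx9 encodes RNA helicase A, a mostly nuclear enzyme that unwinds long RNA duplexes and has also been described as a sensor of foreign nucleic acid. Its counts overlapped widely, at 1559, 2029 and 2607 against 1787, 2242 and 2612, and its log2 fold change of -0.058 was not called (limma, adjusted p = 0.796).

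**Figure D2:**
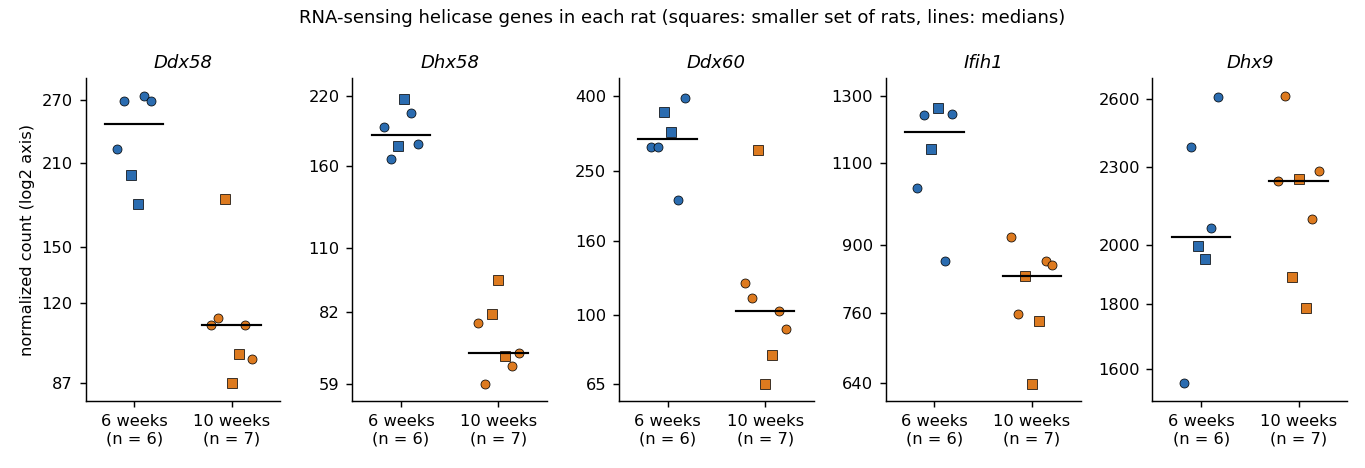
Normalized counts (log2 axis, a separate scale for each gene) of the 4 RNA sensing members and of Ifih1 in each rat at 6 weeks (blue, n = 6) and 10 weeks (orange, n = 7). Squares are the set of 5 rats, circles the set of 8 rats, and lines the group medians. Dhx58 parts the ages, rat 78 is the high 10-week square of Ddx58 (182) and Ddx60 (285), and the ages of Dhx9 overlap.

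Genes of the interferon response were looked up beside these sensors, in a list written after the values were seen, so that its counts describe the data and support nothing. Of its 20 genes in the table (of 21 listed), 15 were called higher at 6 weeks, beside 8.71% of all genes. Called higher at 10 weeks were 0 (0 also at an unadjusted p under 0.05), beside 7.39%, and 11 did not overlap between the ages, beside 6.07%. The median log2 fold change of the 20 genes was 1.04. The summed count of the list was 13300 to 17018 within WOS and 7723 to 9538 outside WOS. Rsad2, which encodes viperin, had a log2 fold change of 1.49, Cxcl10, a chemokine, 1.62, and Usp18, which removes ISG15 from proteins, 1.59, and all of these were called. Oasl, Zbp1 and Herc6 were not called, at -0.20, -0.41 and -0.034. Ifit3, at 0.48 (limma, adjusted p = 0.120), and Mx1, at 1.06 (limma, adjusted p = 0.0773), were not called either. The highest 10-week count of Mx1, 366, was again in rat 78. Immune cells also express the sensors. Macrophage markers summed to 247 to 534 within WOS and 286 to 593 outside WOS, with 0 of 4 called (1 at an unadjusted p under 0.05, higher at 10 weeks). Lymphocyte markers summed to 95 to 295 and 137 to 439, and 1 of the 3 in the table (of 6 listed) was called, higher at 6 weeks. The called marker had a log2 fold change of 1.79, while the median of the 3 was -0.30 and the lowest -0.47. The sums of both lists overlapped between the ages. The part of immune cells and of fibroblasts in the sensor results was not tested.

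Ribosome assembly helicases were the largest group and the one with calls toward 10 weeks. They work mainly in the nucleolus, where they remodel the contacts between ribosomal RNA precursors, small nucleolar RNAs and assembly factors. Of 16 members, 4 were called higher at 10 weeks, beside 7.39% of all genes. Called higher at 6 weeks were 0 (1, Ddx47, at an unadjusted p under 0.05), beside 8.71%. A log2 fold change below 0 was found for 15 members, beside 47.5% of all genes. The median over the 16 was -0.25, and it was -0.24 among the 8 rats and -0.34 among the 5 rats. With library size scaling 13 of the 16 lay below 0, with a median of -0.21, and 12 did in the 8 rats and in the 5 rats alone. The mean of log2(normalized count + 1) over the 16 genes was 8.50 to 8.79 within WOS and 8.81 to 9.11 outside WOS. It did not overlap between the ages at the deposited scaling, but the margin was narrow, with rat 80 at 8.785 and rat 81 at 8.81. Summed over all genes, rat 80 had 13261906 normalized counts and rat 81 had 15024070, so this margin depends on the scaling.

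Promoters of 3 of the 4 called genes are given, chosen because each holds a match to a motif common near the start of housekeeping genes. The other called gene, Ddx10, also has a window but holds neither motif marked here, so the matches are not shared by all 4. The windows are the 250 bases before the RefSeq start in GRCr8, at chr3:32570746-32570995 (plus strand) for Ddx31, chr10:56223144-56223393 (minus strand) for Dhx33 and chr20:31097239-31097488 (minus strand) for Ddx21. Capitals mark the ETS core, CCGGAAG or its reverse complement CTTCCGG, in Ddx31 and Ddx21, and the E-box CACGTG in Dhx33.
Ddx31: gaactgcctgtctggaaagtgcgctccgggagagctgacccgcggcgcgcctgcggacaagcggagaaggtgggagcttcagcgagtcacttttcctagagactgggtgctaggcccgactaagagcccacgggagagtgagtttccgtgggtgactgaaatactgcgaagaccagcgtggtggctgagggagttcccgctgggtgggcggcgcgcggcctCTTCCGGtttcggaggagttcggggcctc
Dhx33: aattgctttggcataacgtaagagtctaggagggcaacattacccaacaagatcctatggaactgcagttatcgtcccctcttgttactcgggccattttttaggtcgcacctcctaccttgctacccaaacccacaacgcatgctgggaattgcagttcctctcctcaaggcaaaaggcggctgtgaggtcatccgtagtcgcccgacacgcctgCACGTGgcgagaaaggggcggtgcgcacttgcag
Ddx21: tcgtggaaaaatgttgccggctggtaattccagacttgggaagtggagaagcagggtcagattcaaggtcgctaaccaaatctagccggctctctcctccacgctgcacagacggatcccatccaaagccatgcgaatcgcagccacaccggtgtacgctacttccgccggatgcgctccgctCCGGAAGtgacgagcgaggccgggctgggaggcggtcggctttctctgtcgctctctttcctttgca
The marked bases lie 29 to 23 bases upstream in Ddx31, 34 to 29 in Dhx33 and 67 to 61 in Ddx21. On both strands, the ETS core was found in 16 of 43 helicase windows (37.2%), among them 8 of the 14 ribosome assembly members with a window. It was found in 14.2% of the windows of genes in the table and in 7.74% of all RefSeq windows. The E-box was found in 5 helicase windows (11.6%), beside 7.89% and 5.79%. These shares were not tested, and genes with an ETS core stood on both sides, since Ddx47 holds one too.

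Ddx31 (ENSRNOG00000013040), a nucleolar helicase of large-subunit assembly, had the lowest log2 fold change of the 48 genes. Its counts were 224, 360.5 and 490 at 6 weeks and 436, 651 and 705 at 10 weeks. All but 1 of the 6-week rats lay below every 10-week rat. This gave a log2 fold change of -0.84 (SE 0.18), or 1.79-fold higher at 10 weeks (limma, adjusted p = 0.00952), with -1.09 in the 8 rats and -0.38 in the 5 rats. Dhx33 (ENSRNOG00000007054), which takes part in the transcription of ribosomal RNA, had counts of 215, 242 and 309 against 318, 382 and 399, with no overlap. Dhx33 had a log2 fold change of -0.56 (SE 0.11), or 1.47-fold (limma, adjusted p = 0.00510), with -0.64 in the 8 rats and -0.40 in the 5 rats. Ddx10 (ENSRNOG00000012500), which acts in the early processing of the small subunit, did not overlap either, with 495, 578.5 and 669 against 673, 818 and 974. Its log2 fold change was -0.47 (SE 0.11), or 1.39-fold (limma, adjusted p = 0.0127), with -0.53 in the 8 rats and -0.42 in the 5 rats.

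Ddx21 (ENSRNOG00000043099) is a nucleolar helicase that binds both ribosomal DNA and small nucleolar RNAs and links the transcription of ribosomal RNA with its processing. Its counts were 3665, 3812 and 4404 at 6 weeks and 4300, 5288 and 6047 at 10 weeks. All but 1 of the 6-week rats lay below every 10-week rat, and the exception was rat 71 at 4404. Ddx21 was thus 1.36-fold higher at 10 weeks, with a log2 fold change of -0.44 (SE 0.10) and an adjusted p of 0.0127 in limma. The 8 rats alone gave -0.54 and the 5 rats -0.31. Ddx50, its paralogue and its neighbour in the RefSeq annotation, had counts of 654, 753 and 932 against 692, 1063 and 1257, and its log2 fold change of -0.37 was not called (limma, adjusted p = 0.0970). Among the 8 rats Ddx50 was called, at -0.56 (limma, adjusted p = 0.0291). Of the 13 fits with a rat left out, 1 called Ddx50, at -0.46 (limma, adjusted p = 0.0256). That fit left out rat 81, whose 692 was the lowest 10-week count.

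**Figure D3:**
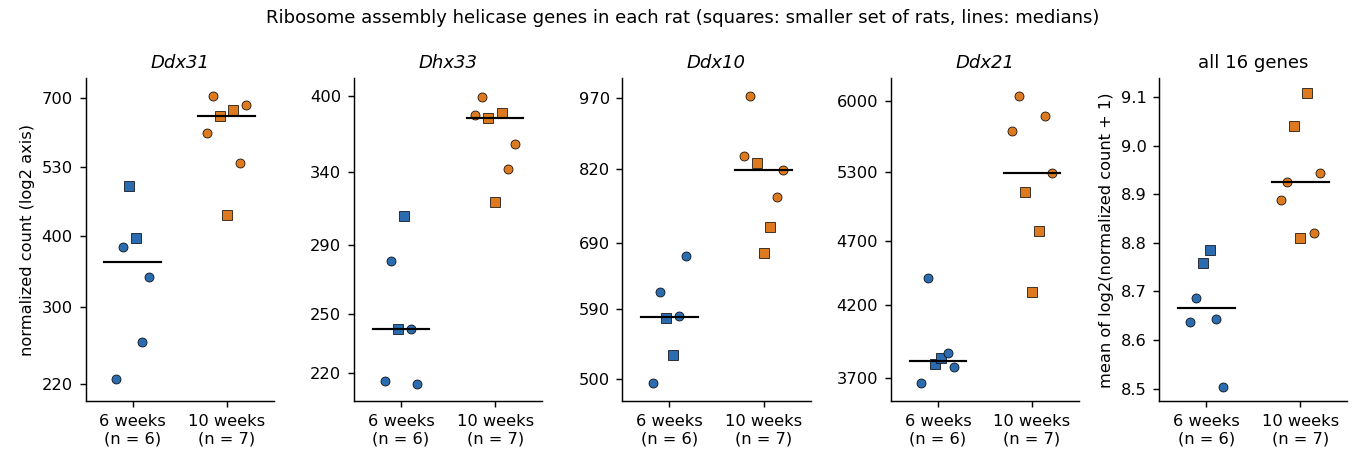
Normalized counts (log2 axis, a separate scale for each gene) of the 4 called ribosome assembly genes in each rat, and at the right the mean of log2(normalized count + 1) over all 16. Blue is 6 weeks (n = 6), orange 10 weeks (n = 7), squares are the set of 5 rats, circles the set of 8 rats and lines the group medians. Dhx33 and Ddx10 part the ages, as does, by a narrow margin at the deposited scaling, the mean over 16 genes. Ddx31 and Ddx21 overlap by 1 rat of each age.

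The other ribosome assembly genes were not called. Ddx27 and Ddx56, both helicases of the large subunit, had log2 fold changes of -0.28 (limma, adjusted p = 0.0677) and -0.35 (limma, adjusted p = 0.103). The counts of Ddx27 were 415, 452.5 and 485 against 464, 546 and 626, so that 4 of the 6-week rats lay below every 10-week rat. Those of Ddx56 were 158, 222 and 246 against 228, 268 and 369. Ddx47, which acts early in the processing of ribosomal RNA, was the 1 member of the group above 0, with a log2 fold change of 0.33 that was not called (limma, adjusted p = 0.131). Its counts were 573, 743.5 and 923 at 6 weeks and 483, 564 and 743 at 10 weeks. The markers of dividing cells were also summed. They lay at 2143 to 4788 within WOS and 283 to 1210 outside WOS, and 6 of 6 were called higher at 6 weeks. Of the luminal markers given above, 2 were called higher at 10 weeks. The part of cell division and of cell type in this group was not tested.

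Mitochondrial helicases differed from each other. Ddx28 (ENSRNOG00000019817), which serves assembly of the mitochondrial ribosome, was called higher at 6 weeks. Its counts were low, at 60, 67.5 and 70 at 6 weeks and 35, 47 and 67 at 10 weeks, and rat 81 alone of the 10-week rats reached the 6-week range. Ddx28 had a log2 fold change of 0.47 (SE 0.13), or 1.39-fold (limma, adjusted p = 0.0295), with 0.44 in the 8 rats and 0.54 in the 5 rats. This call was the weakest of the 8: it was lost when rat 70, 72, 74, 84 or 87 was left out, with adjusted p between 0.0502 and 0.0628 in limma, and with limma-trend (adjusted p = 0.0670). Dhx30, a helicase of the granules in which mitochondrial RNA is processed, had counts of 272, 428.5 and 503 against 358, 441 and 582. Its log2 fold change of -0.13 was not called (limma, adjusted p = 0.614).

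Splicing helicases stayed within a narrow range. Limma called 0 of the 14 in either direction, beside 8.71% of all genes higher at 6 weeks and 7.39% higher at 10 weeks. The log2 fold changes of the 14 ran from -0.25 to 0.06 with a median of -0.11. Of these, 11 lay below 0, beside 47.5% of all genes, and 1, Ddx42, had an unadjusted p under 0.05. Ddx42 acts in the formation of the early spliceosome, and had counts of 959, 1100.5 and 1148 against 992, 1290 and 1586. Its log2 fold change of -0.25 was not called (limma, adjusted p = 0.158), but the value in the 8 rats alone, -0.40, was (limma, adjusted p = 0.0445). Dhx15, which takes apart spent spliceosomes, had counts of 3290, 4168.5 and 4828 against 3594, 4404 and 5143, with a log2 fold change of -0.098 (limma, adjusted p = 0.624). Its ages overlapped almost fully. Dhx8, which releases the spliced mRNA, varied least among the 48 genes, with a within-age SD of 0.075 on the log2 scale, and its log2 fold change was -0.073 with a 95% interval from -0.25 to 0.10. Dhx38, which acts at the second catalytic step, had 0.061 with a wider interval from -0.30 to 0.42.

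The estrogen receptor coactivators were among these splicing genes. Ddx5 had counts of 16619, 21674.5 and 24023 at 6 weeks and 17919, 20644 and 24568 at 10 weeks. Its log2 fold change of -0.044 had a 95% interval from -0.30 to 0.21 and no steady sign, since it was 0.0039 with library size scaling. Ddx17 had counts of 3945, 4364 and 4828 against 4334, 5050 and 5675, and its log2 fold change of -0.20 was not called (limma, adjusted p = 0.172). For both coactivators the ages overlapped and limma made no call.

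Limma called 0 of the 6 helicases of mRNA export, translation and decay, whose log2 fold changes ran from -0.31 to 0.30, and 1 of them, Ddx6, had an unadjusted p under 0.05. Ddx6, which represses translation and helps to remove the mRNA cap in processing bodies, had counts of 2482, 3103 and 3885 against 3287, 3827 and 4518. Its log2 fold change of -0.31 was not called (limma, adjusted p = 0.0850), and 4 of the 6-week rats lay below every 10-week rat. Ddx3x, which helps the ribosome start on structured mRNA, had counts of 19409, 20892 and 28597 against 19276, 26087 and 30451. The ages overlapped throughout, and the log2 fold change of -0.19 was not called (limma, adjusted p = 0.323). Ddx19a, which frees mRNA at the nuclear pore, was closest to 0 at 0.0073, with a 95% interval from -0.18 to 0.19. Dhx34, a factor of nonsense-mediated decay, had the lowest counts of the family, at 7, 14.5 and 19 against 2, 13 and 27, and its 95% interval from -0.59 to 1.19 shows how little can be said at this depth.

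Limma called 0 of the 6 other members, and 2 of them, Ddx11 and Dhx40, had an unadjusted p under 0.05. Ddx11 had the highest log2 fold change among them, 0.62 (limma, adjusted p = 0.124), with counts of 42, 50.5 and 61 at 6 weeks and 18, 29 and 73 at 10 weeks. The highest count, 73, belonged to rat 81 at 10 weeks. With rat 81 left out it came to 0.80 and was called (limma, adjusted p = 0.0166), and in the 8 rats it was 1.05 (limma, adjusted p = 0.00619), but in the 5 rats it was 0.035. Dhx40 had counts of 387, 552.5 and 587 against 313, 388 and 519, and a log2 fold change of 0.38 (limma, adjusted p = 0.117). The remaining 4, Ddx1, Ddx59, Dhx32 and Dhx57, lay between -0.032 and 0.13.

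Close paralogues were compared within each rat, because a ratio of genes from 1 library does not depend on the scaling of that library. Of 6 pairs, 4 had both genes in the table. The mean log2 ratio of Ddx39a to Ddx39b, both mRNA export and splicing helicases, was -2.29 ± 0.24 at 6 weeks and -2.52 ± 0.27 at 10 weeks (SD, with n = 6 and n = 7 rats). The difference of 0.23 did not pass the threshold (exact permutation test over 1716 splits, two-sided, p = 0.146, adjusted over 4 pairs p = 0.291). The ratio of Ddx5 to Ddx17 was 2.23 ± 0.19 against 2.08 ± 0.12, a difference of 0.15 (exact permutation test, p = 0.109, adjusted p = 0.291). For Ddx21 to Ddx50 the difference was -0.065, and for Dhx8 to Dhx38 it was -0.13 (exact permutation test, p = 0.558 and 0.419, adjusted p = 0.558 for both). All 4 differences missed the threshold, where the smallest p the design allows is 0.000583. RSEM divides reads that fit several genes, so the split between paralogues is uncertain where their sequences are alike.

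Other helicases that work on RNA carry symbols outside the rule. Of 18 listed, 15 were in the table, with 1 called in each direction, beside 8.71% of all genes called higher at 6 weeks and 7.39% higher at 10 weeks, and a median log2 fold change of -0.13. Ifih1, described above, was the one higher at 6 weeks. Dicer1, which cuts microRNA precursors and carries a helicase domain, was the one higher at 10 weeks. Its counts were 941, 1156 and 1310 at 6 weeks and 1564, 1679 and 1912 at 10 weeks, with no overlap. Dicer1 was 1.53-fold higher at 10 weeks, with a log2 fold change of -0.61 (SE 0.10; limma, adjusted p = 0.00209). The DEAD box translation factors Eif4a1, Eif4a2 and Eif4a3 were not called, at -0.13, -0.55 and 0.33, and the 13 genes not called ran from -0.55 to 0.76. Eif4a2 missed the threshold narrowly (limma, adjusted p = 0.0593), and was called in the 8 rats, at -0.79 (limma, adjusted p = 0.0190), without rat 81 (limma, adjusted p = 0.0128), and under 4 other settings.

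Within an age, the helicase genes differed in how steady they were. The within-age SD on the log2 scale had a median of 0.22 over the 48 genes. It was highest for Dhx34, at 0.80, followed by Ddx60 at 0.55, Ddx54 and Dhx37 at 0.52, Ddx11 at 0.49 and Ddx49 at 0.47. Of these, all but Ddx11 differed between the sets of rats in the same direction at both ages. At 6 and 10 weeks the log2 difference was -0.33 and -0.37 for Dhx34 and 0.24 and 0.083 for Ddx60. It was larger at both ages for Ddx54, Dhx37 and Ddx49, ribosome assembly genes named after their values were seen. Ddx54 stood at 952, 918 and 956 in rats 78, 81 and 83 and at 376 to 527 in the other 10-week rats. Dhx37, which acts in the maturation of the small subunit, stood at 324 to 436 in those 3 rats and at 141 to 216 in the others, and Ddx49 at 304 to 355 and 147 to 224. At 6 weeks Dhx37 stood at 257 to 290 in rats 75 and 80 and at 128 to 172 in the other 4. For Ddx54 and Ddx49 the sets overlapped at 6 weeks, with 680 to 702 against 333 to 709 and 238 to 266 against 129 to 275. Of the 48 genes, 12 were higher in the set of 5 rats at both ages, 24 were lower at both and 12 changed sides. The sets were drawn from these same libraries, so this is a description with no test.

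**Figure D4:**
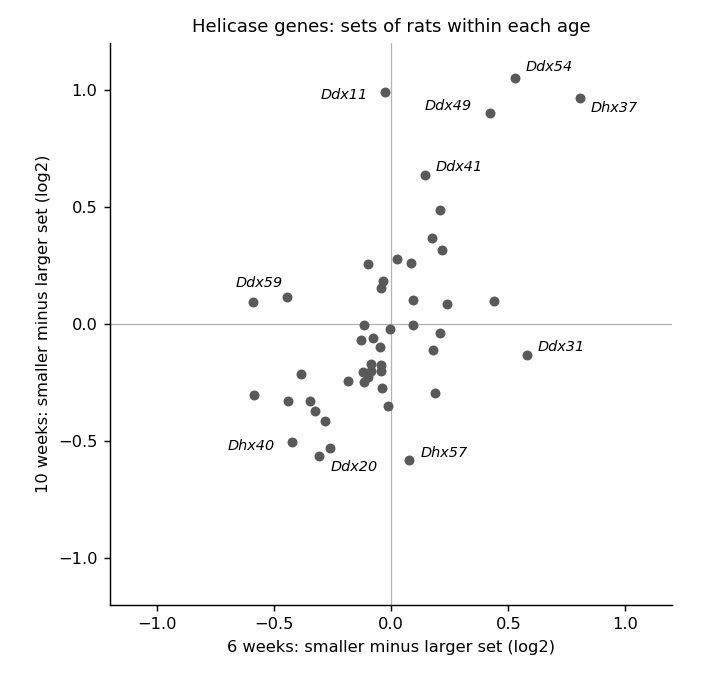
Each point is 1 of the 48 helicase genes, placed by the mean difference between the set of 5 rats (smaller set) and the set of 8 rats (larger set) on the log2 scale at 6 weeks (x axis) and at 10 weeks (y axis). Ddx54, Ddx49 and Dhx37 lie above 0 on both axes (0.53 and 1.05, 0.42 and 0.90, 0.80 and 0.97), and Ddx11 lies above 0 at 10 weeks alone (-0.025 and 0.99).

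The table also gives a word on cellular location for some genes, whose source is not stated. Among the 32 Ddx genes, 12 were listed as nuclear, 7 as nuclear and cytoplasmic, 1 (Ddx58) as cytoplasmic, and 12 had no word. Among the 16 Dhx genes, 12 were listed as cytoplasmic, 2 as both, 0 as nuclear alone, and 2 had no word. The cytoplasmic Dhx genes included the splicing helicases Dhx8, Dhx15, Dhx16 and Dhx38, whose known work is in the nucleus, so the words were used for no comparison.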

How the data were processed

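RNA was measured in 13 libraries, 1 per rat, grouped by the age in the labels. Counts were estimated by the authors in RSEM 1.2.22. The deposited per-rat values behave as such counts scaled per library and rounded, which the sources used here do not state, and are treated as a score, called normalized counts. The submitters' processing notes name build rn5, and the paper names rn6 for its chromatin data. Columns of the authors' own edgeR comparison (fold changes, mean abundance, likelihood ratios, p-values, false discovery rates and derived scores) were not used.

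The ages were compared with limma 3.58.1 in R 4.3.3 on log2(value + 1), without covariates, with a minimum mean of 1 that all 14790 genes met, with two-sided p-values adjusted after Benjamini-Hochberg. This scale understates changes of genes with low counts. Depth before scaling is not given in the sources used here, so precision at low counts may differ between rats. Paralogue ratios were tested by exact permutation over rats. Python 3.11.15, numpy 2.4.6, pandas 2.3.3 and scipy 1.17.1 served the rest, and scripts were tested on simulated data. Genes named are those with an adjusted or unadjusted p under 0.05, the 5 with the highest mean, any with a mean under 10 and the paralogues. Ddx54, Ddx49, Dhx37, Dhx34, Ddx19a, Dhx9, Dhx30, the related and the interferon genes were named after their values were seen. Members, roles, markers and lists were chosen with earlier results of these data known. Promoters came from RefSeq (GRCr8), a build other than that of the counts. Alternatives were other scalings, pseudocounts of 0.1 and 10, other minimums, sample quality weights, limma-trend, a term for the first residual component, the 8 or 5 rats alone and each rat left out.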

Additional observations from a re-analysis of the deposited data

Results flagged for a closer look

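Within the age groups, 9 values stood apart from the rest of their group by a gap larger than Dixon's 95% critical value, among 74 groups tested over 37 genes and ratios. Chance alone gives about 1 in 20 groups. In Ddx58 and Ddx60, rat 78 stood above the other 10-week rats, with normalized counts of 182 (next 113) and 285 (next 123). In rat 71 at 6 weeks, Ddx21 was high at 4404 (next 3863), and so was Eif4a2 at 6804 (next 5179). In rat 86 at 6 weeks, Ddx56 was low at 158 (next 214) and Dhx38 was low at 344 (next 539), and the log2 ratio of Dhx8 to Dhx38 was high there at 0.97 (next 0.49). In rat 75 at 6 weeks, Ddx39b was high at 4446 (next 3595), and the log2 ratio of Ddx39a to Ddx39b was low at -2.74 (next -2.30).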

How the results depend on the processing

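Of the 8 called helicase genes, 7 were called whichever rat was left out, Ddx28 being the exception, and all 8 kept their direction under every alternative. Other settings gave 96 values of these genes, of which 87 stayed under the threshold and 9 did not, 8 of the latter in the set of 5 rats. That set called 0 of all genes and 0 helicase genes in either direction with limma, and 1 helicase gene in each direction had an unadjusted p under 0.05 there. Helicase genes called higher at 6 and 10 weeks numbered 7 and 8 with sample quality weights, 7 and 7 with a term for the first residual component, 5 and 6 in the 8 rats, and 3 to 5 and 4 to 6 with a rat left out. Gained with weights and with the component were Ddx11, Ddx47 and Dhx40, higher at 6 weeks, and Ddx6 and Ddx27, higher at 10 weeks. Ddx42 and Ddx50 were gained with weights but not with the component, and Ddx56 the reverse, all higher at 10 weeks. Calls over all 14790 genes moved too, from 1288 and 1093 to 3009 and 2638 with weights and 1875 and 1651 with the component. They were 2003 and 1466 in the 8 rats, and 803 to 1461 and 608 to 1219 with a rat left out. The median log2 fold change of the helicase genes moved to -0.066 with library size scaling.

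Of the 15 related helicase genes outside the symbol rule, the number called higher at 6 weeks was 4 with weights and 3 with the component. It was 2 in the 8 rats, 0 in the 5 rats and 1 to 2 with a rat left out. Higher at 10 weeks were 2 with median-ratio scaling, 3 with at least 10 in every rat, 3 with limma-trend, 4 with weights, 4 with the component, 2 in the 8 rats, 0 in the 5 rats and 1 to 2 with a rat left out. Among the 48 members, a minimum of 10 in every rat left out Dhx34.

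The sign turned for genes that were not called. Ddx5 came to 0.0039 with library size scaling, 0.052 with weights and -0.088 to 0.018 with a rat left out, Dhx34 to -0.030 to 0.51 with a rat left out, and Eif4a1 to 0.010 with weights. In the 8 rats Ddx54 came to 0.076 and Ddx49 to 0.095, and in the 5 rats Dhx38 came to -0.079. The difference in log2 ratio turned to 0.020 for Ddx21 to Ddx50 in the 8 rats, and to -0.067 for Ddx5 to Ddx17 and 0.014 for Dhx8 to Dhx38 in the 5 rats. The cause of these changes was not tested. No paired analysis was possible because each rat has a number of its own and the ages share none. Depth limits what can be said of Dhx34, Ddx11 and Ddx28, whose counts were the lowest.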
